A study of Mus musculus with 6 samples.

Results

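The RNA levels of 8 keratin genes were followed in mammary epithelial organoids taken from mice at lactation day 1. Krt7, Krt8, Krt18 and Krt19 mark luminal cells and Krt5, Krt14, Krt15 and Krt17 mark basal cells. They were chosen by symbol, with earlier results of these data known. All 8 were found among the 17739 gene columns of the deposited table, which holds 33 keratin genes. Organoids are pieces of epithelium released by enzymes from the gland. Libraries from 3 Nmi-/- mice, which the submitters' title calls a conditional knockout of Nmi (N-myc and STAT interactor), were set against libraries from 3 wild-type mice. All mice were FVB, each library came from 1 mouse, and the second and the third glands of the mouse were used. The sources used here do not name the Cre driver or the deleted exons. The stated aim of the series was to relate the loss of Nmi to excess growth of the epithelium.

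Keratins are the intermediate filament proteins of epithelia. A filament is built from pairs of a type I (acidic) and a type II (basic to neutral) keratin, so every epithelial cell makes at least 1 of each. In the mammary gland the luminal cells, which make milk, use the type II keratins Krt8 and Krt7 with the type I keratins Krt18 and Krt19, while the basal myoepithelial cells, which contract to expel milk, use type II Krt5 with type I Krt14 and Krt17. Krt15 is a further type I keratin of basal layers.

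The genes lie in both mouse keratin clusters, and parts of their coding sequence are so alike that short reads could be assigned to more than 1 gene. On GRCm38, in GENCODE release M21, the type II genes Krt7 (101411043 to 101430313, plus strand), Krt5 (101707070 to 101712898, minus strand) and Krt8 (101996698 to 102004482, minus strand) lie on chromosome 15. The type I gene Krt18 (102028180 to 102032027, plus strand) lies beside Krt8 there, 23697 bases away. The other type I genes lie on chromosome 11, all on the minus strand, with Krt15 at 100131758 to 100135928, Krt19 at 100140810 to 100148665, Krt14 at 100203162 to 100207548 and Krt17 at 100256217 to 100261029.

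The stretch of Krt14 from base 399 to base 532 of its longest coding transcript, all within the coding sequence, is identical over 134 bases to Krt16. It is set against the best ungapped match in the coding sequence of the other type I members, to show how far they can be told apart, with bases that differ from Krt14 in capitals.
Krt14: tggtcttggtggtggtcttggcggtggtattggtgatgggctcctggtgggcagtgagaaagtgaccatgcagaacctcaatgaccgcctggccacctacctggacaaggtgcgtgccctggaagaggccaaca
Krt17: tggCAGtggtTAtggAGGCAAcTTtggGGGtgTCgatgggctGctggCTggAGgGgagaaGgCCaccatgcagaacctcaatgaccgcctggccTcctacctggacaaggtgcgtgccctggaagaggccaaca
Krt15: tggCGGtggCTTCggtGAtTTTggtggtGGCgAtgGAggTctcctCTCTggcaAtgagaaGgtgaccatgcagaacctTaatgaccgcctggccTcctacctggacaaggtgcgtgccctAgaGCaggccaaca
Krt19: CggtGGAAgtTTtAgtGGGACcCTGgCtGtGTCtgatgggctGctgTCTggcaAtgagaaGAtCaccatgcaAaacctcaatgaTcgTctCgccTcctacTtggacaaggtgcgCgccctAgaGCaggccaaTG
Krt18: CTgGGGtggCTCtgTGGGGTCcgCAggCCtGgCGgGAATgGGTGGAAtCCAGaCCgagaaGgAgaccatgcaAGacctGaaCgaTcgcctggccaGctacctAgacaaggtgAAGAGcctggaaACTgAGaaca
Krt17 matched 79.1% of the bases, Krt15 77.6%, Krt19 69.4% and Krt18 56.7%, with 28, 30, 41 and 58 differences. These sequences are those of GENCODE. Of all windows of 50 bases in the longest coding transcript, 26.9% in Krt8 were found unchanged in another gene, the processed pseudogene Krt8-ps, with the longest identical run at 299 bases. The share was 14.4% in Krt14, 8.52% in Krt5, 3.995% in Krt17, 0.72% in Krt18 and 0.67% in Krt15, and 0 windows were shared in Krt7 and Krt19. The sources used here do not say how such reads were divided, so Krt8, Krt14 and Krt5 carry that uncertainty. Among the partners, Krt16 ran from 0.524 to 2.99 FPKM and Krt6a from 0 to 0.234 FPKM. Krt14 and Krt17, which share an identical run of 71 bases with each other, were both far above those levels. All these levels depend on the same division of reads, so they set no limit on that uncertainty.

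The values are FPKM, fragment numbers corrected for gene length and library size. Levels of different genes can be compared as far as reads were assigned correctly, which is uncertain for Krt8, Krt14 and Krt5. Nmi, the targeted gene, had 0.188, 0.547 and 0.564 FPKM in knockout replicates 1, 2 and 3, against 4.60, 2.82 and 2.32 FPKM in wild-type replicates 1, 2 and 3. The groups did not overlap for Nmi, and its log2 fold change was -1.54 (SE 0.23, adjusted p = 0.372, limma). The number of genes with an FPKM of at least 1 ran from 9084 to 10116 over the libraries. A set of 20 milk protein genes held 68.1%, 64.5% and 77.3% of the FPKM sum in knockout replicates 1, 2 and 3, against 49.2%, 62.3% and 71.5% in wild-type replicates 1, 2 and 3. Wild-type replicate 1 and knockout replicate 3 stood at the ends of this range, and the keratin values are given with both and without them where that moves the result. Since each FPKM is divided by its library's total, a larger milk share lowers the FPKM of all other genes in that library.

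Epcam, an epithelial adhesion protein, ran from 189.9 to 578 FPKM. Markers of other cells were also present. The 9 endothelial markers summed to 81.7 to 160.04 FPKM in the knockout and 86.9 to 178 FPKM in wild type, led by Cldn5 and Cdh5. The 9 fibroblast markers summed to 34.8 to 63.4 FPKM in the knockout and 23.9 to 55.8 FPKM in wild type. All 6 tested fibroblast markers had positive fold changes, with a median of 0.25 on the log2 scale, where 81.7% of all tested genes had negative ones. Of the 6, 0 had an unadjusted p under 0.05 (limma) and the groups overlapped for each. Without knockout replicate 3 their median was 0.17 and 1 of 6 was negative. The 10 immune markers summed to 24.6 to 73.9 FPKM in the knockout and 28.9 to 36.8 FPKM in wild type. The 73.9 FPKM were in knockout replicate 3, the library with the least luminal keratin. Cd74, an antigen presentation gene, had 58.1 FPKM there and 15.6 and 36.9 FPKM in knockout replicates 1 and 2, against 17.9 to 23.6 FPKM in wild type. Cd68, the other immune gene named by level, went the other way. It had 5.03, 5.64 and 3.35 FPKM in knockout replicates 1, 2 and 3, against 6.84 to 6.94 FPKM in wild type. The groups did not overlap for Cd68, 1 of 3 tested immune markers, where 3.83% of tested genes were lower without overlap. Of the 8 epidermal markers in the table, 7 stayed under 1 FPKM in every library, including the epidermal keratins Krt1 and Krt10, while Sbsn ran from 16.4 to 116.9 FPKM. Of the 8 adipocyte markers, the defining gene Adipoq stayed at 0 to 0.0957 FPKM while Fabp4, which endothelial cells also make, ran from 156.7 to 672 FPKM. The 9 skeletal muscle markers summed to 0.281 to 1.71 FPKM in the knockout and 0.465 to 0.736 FPKM in wild type. The part of other cell types in the keratin values was not tested.

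The luminal keratins Krt18, Krt8 and Krt19 were the most abundant of the 8, and Krt15 the least. Over the 6 libraries the mean level was 854 ± 471 FPKM for Krt18, 811 ± 444 FPKM for Krt8, 616.0 ± 281 FPKM for Krt19, 97.9 ± 42.4 FPKM for Krt14, 72.5 ± 75.8 FPKM for Krt7, 70.1 ± 35.5 FPKM for Krt17, 46.8 ± 22.7 FPKM for Krt5 and 8.81 ± 4.14 FPKM for Krt15 (SD, n = 6). Within a library, Krt19 exceeded Krt14, Krt17 exceeded Krt5 and Krt5 exceeded Krt15 in 6 of 6 libraries, and Krt18 exceeded Krt8, Krt8 exceeded Krt19 and Krt14 exceeded Krt7 in 5 of 6. Krt7 exceeded Krt17 in 1 of 6 libraries in spite of its larger mean. Apart from Krt19 over Krt14 and Krt5 over Krt15, the means of neighbours in this order differed by less than the larger of their SDs. The 8 genes held between 99.6% and 99.8% of the FPKM of all keratin genes in each library.

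**Figure D1:**
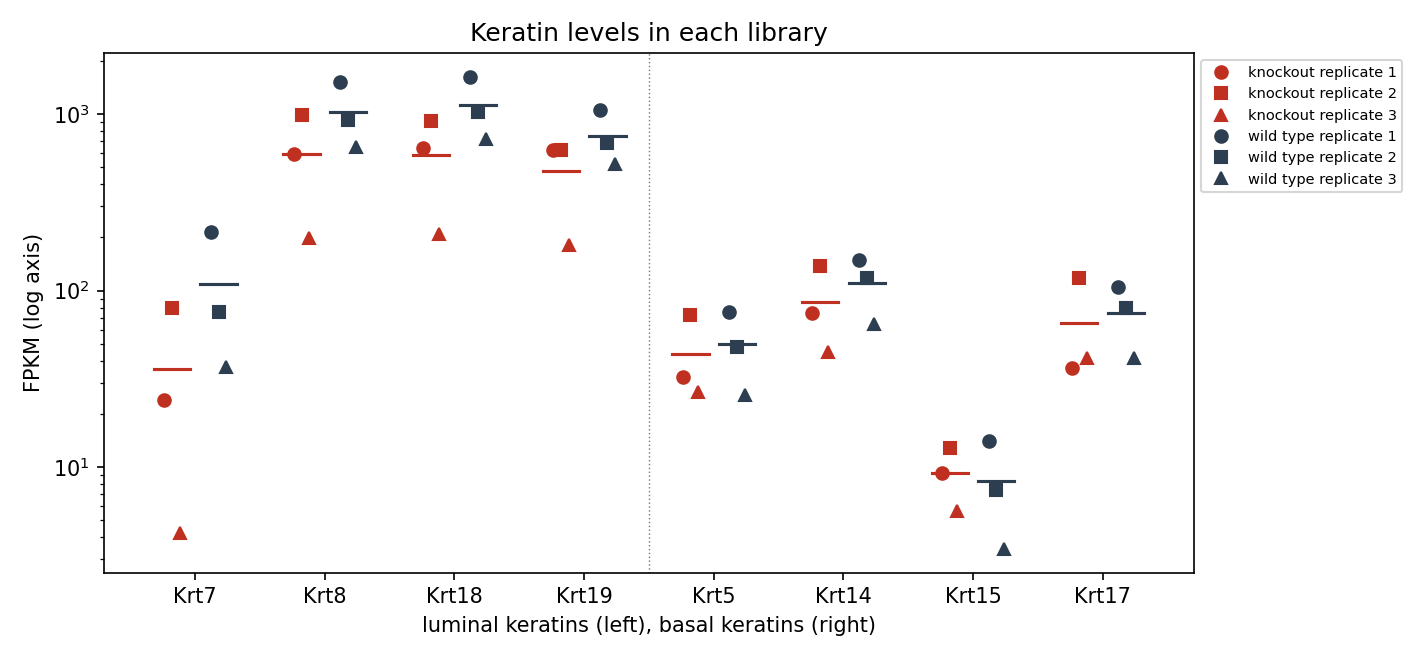
FPKM of each keratin (log axis) in 3 knockout libraries (red, left of each pair) and 3 wild-type libraries (dark, right of each pair); marker shape gives the replicate and the bar the group mean. The groups overlap for every gene, and knockout replicate 3 holds the lowest value of each luminal keratin.

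The 4 luminal keratins had lower means in the knockout, between 32.9% and 63.3% of wild type, but none passed the test and the groups overlapped for each. Krt8, the main type II keratin of luminal cells, had 596, 983 and 198 FPKM in knockout replicates 1, 2 and 3, against 1515, 929 and 647 FPKM in wild-type replicates 1, 2 and 3. Knockout replicates 1 and 3 lay under every wild-type library and knockout replicate 2 lay above wild-type replicates 2 and 3. The mean was 592 ± 392 FPKM in the knockout and 1030.2 ± 443 FPKM in wild type (SD, n = 3 each), and limma put the difference on the log2(FPKM + 1) scale at -0.99, with an SE of 0.55 and a 95% confidence interval of -2.20 to 0.22 (adjusted p = 0.768, limma with Benjamini-Hochberg adjustment over 9767 genes). In bulk RNA, fewer cells of a type and less of the RNA per cell cannot be told apart.

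Krt18, the type I partner of Krt8, had 638, 908 and 210.3 FPKM in knockout replicates 1, 2 and 3, against 1627, 1022 and 719 FPKM in wild-type replicates 1, 2 and 3. Here too knockout replicates 1 and 3 were below all wild-type libraries, and knockout replicate 2 lay between wild-type replicates 2 and 3. For Krt18 the fold change on the log2 scale came to -1.10, with an SE of 0.53 and a 95% confidence interval of -2.26 to 0.063 (adjusted p = 0.768, limma). Krt19, a type I keratin that lacks the tail domain of the others, had 626, 625 and 181 FPKM in the knockout libraries, against 1053, 688 and 522 FPKM in wild type. Only knockout replicate 3 lay under all wild-type libraries for Krt19, with a log2 fold change of -0.80 (SE 0.50, adjusted p = 0.768, limma).

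Krt7, a type II keratin of luminal and ductal epithelia, differed most between libraries. It had 23.9, 79.7 and 4.23 FPKM in knockout replicates 1, 2 and 3, against 215.2, 75.2 and 37.04 FPKM in wild-type replicates 1, 2 and 3. Wild-type replicate 1 was 50.9 times knockout replicate 3, while knockout replicate 2 and wild-type replicate 2 were close. On the log2 scale Krt7 differed by -1.97, with an SE of 0.85 and a 95% confidence interval of -3.84 to -0.093 (adjusted p = 0.768, limma). With all 6 libraries as deposited, Krt7 was the 1 member of 8 under an unadjusted limma threshold of 0.05, and 0 of 8 were under the adjusted threshold, as were 0% of all tested genes. Of all 9767 tested genes, 1.33% had an unadjusted p under 0.05 and 1.15% did so while lower in the knockout. Krt7 was above 0.05 under each of the 3 scalings and without knockout replicate 3 or wild-type replicate 1. The exact permutation test over mice gave p = 0.3 for Krt7 and Krt8, 0.2 for Krt18 and 0.4 for Krt19 (two-sided, smallest possible p 0.1 with 3 against 3).

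The size of these differences rested on knockout replicate 3 and, less, on wild-type replicate 1. Without knockout replicate 3 the log2 fold change was -0.93 for Krt7, -0.34 for Krt8, -0.48 for Krt18 and -0.21 for Krt19. Without wild-type replicate 1 it was -1.30, -0.67, -0.79 and -0.53 for the same genes in that order. With both libraries left out, an alternative added after the data were seen, the values were -0.26, -0.019, -0.17 and 0.061. Without knockout replicate 2 they were larger, at -2.91 for Krt7, -1.49 for Krt8, -1.53 for Krt18 and -1.10 for Krt19, and the adjusted p was still 0.403 for the smallest of them. With library weights the values were -1.46, -0.62, -0.70 and -0.28. The weight was 5.50 for wild-type replicate 2 and 2.67 for knockout replicate 1, against 0.31 to 0.79 for the others. That fit thus rested mostly on wild-type replicate 2 and knockout replicate 1. Krt7 had an unadjusted p of 0.0044 in it (adjusted p = 0.419, limma), where 1142 of all 9767 tested genes were under 0.05.

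The 4 basal keratins had knockout means between 77.8% and 111% of wild type, and none passed the test. Krt5, the type II keratin of basal cells, had 32.3, 72.5 and 26.6 FPKM in knockout replicates 1, 2 and 3, against 76.03, 47.9 and 25.6 FPKM in wild-type replicates 1, 2 and 3. Both groups spanned nearly the same range, with a log2 fold change of -0.19 (SE 0.45, 95% confidence interval -1.17 to 0.79, adjusted p = 0.860, limma). Krt14, its type I partner, had 74.7, 137.6 and 44.6 FPKM in the knockout, against 148.6, 117.1 and 64.6 FPKM in wild type, with a log2 fold change of -0.43 (SE 0.44, adjusted p = 0.768, limma). Only knockout replicate 3 lay below the wild-type range for Krt14.

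Krt17, a type I keratin that basal cells share with stressed and healing epidermis, had 36.3, 117.9 and 41.6 FPKM in knockout replicates 1, 2 and 3, against 104.2, 79.4 and 41.5 FPKM in wild-type replicates 1, 2 and 3. Unlike the other 7 members, its highest value was in the knockout, in replicate 2. For Krt17 the fold change on the log2 scale came to -0.31, with an SE of 0.47 and a 95% confidence interval of -1.34 to 0.72 (adjusted p = 0.796, limma). Krt15 was the only member with a higher mean in the knockout, at 9.28, 12.9 and 5.67 FPKM in knockout replicates 1, 2 and 3, against 14.1, 7.43 and 3.44 FPKM in wild-type replicates 1, 2 and 3. The knockout values all lay inside the wild-type range, with a log2 fold change of 0.25 (SE 0.42, 95% confidence interval -0.67 to 1.17, adjusted p = 0.810, limma). The exact permutation p was 0.8 for Krt5 and Krt17, 0.6 for Krt14 and 0.7 for Krt15. Without knockout replicate 3 the log2 fold change was 0.093 for Krt5, -0.036 for Krt14, 0.53 for Krt15 and -0.095 for Krt17. With that library and wild-type replicate 1 both left out it was 0.46, 0.22, 0.97 and 0.19 for the same genes in that order, and Krt15 was at -0.20 without wild-type replicate 3. With library weights Krt17 was at -0.70, Krt14 at -0.46, Krt5 at -0.30 and Krt15 at 0.37, so Krt19 at -0.28 lay above 3 of the basal genes.

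Most genes had negative fold changes in this table, so the members were also read against that background. Of all tested genes, 81.7% had a fold change below 0 and the median was -0.21 on the log2 scale. All 4 luminal keratins lay under that median, with a median of -1.04, and 2 of the 4 basal keratins did, with a median of -0.25. Relative to the median of all genes the values were -1.76 for Krt7, -0.89 for Krt18, -0.78 for Krt8 and -0.60 for Krt19, and -0.22 for Krt14, -0.10 for Krt17, 0.019 for Krt5 and 0.46 for Krt15. The 4 luminal genes stayed negative under trimmed-mean rescaling, under quantile normalization and when scaled to the FPKM outside the milk genes, with medians of -0.78, -0.90 and -0.82. Of all tested genes, 49.8%, 52.2% and 56.3% were negative under these scalings. Krt5 came to 0.067, 0.021 and 0.027 under these scalings, so no direction can be given for it. The groups did not overlap for 3.83% of tested genes lower and 0.778% higher in the knockout, and 0 of the 8 keratins were among them.

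**Figure D2:**
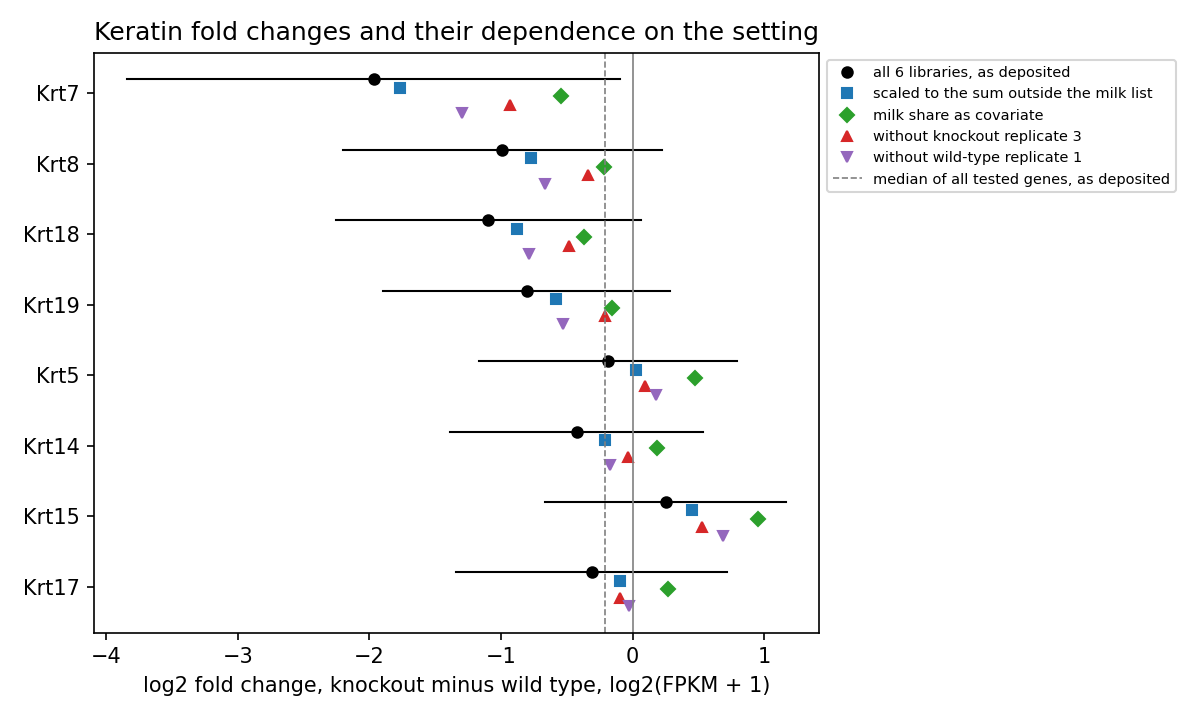
Log2 fold change of each keratin, knockout minus wild type, under 5 settings, with the 95% confidence interval of the fit on all 6 libraries as a line and the median of all tested genes (-0.21) dashed. In each of the 5 settings the 4 luminal keratins lie left of the 4 basal ones, which does not hold under library weights (not drawn), and leaving out knockout replicate 3 moves Krt8 to -0.34.

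Ratios within a library do not depend on the library's total, so they show the make-up of the keratins apart from that total. They can still vary with the milk share. Krt8 and Krt18 kept nearly equal levels while Krt8 itself ranged 7.66-fold over the libraries. Their ratio was 0.935, 1.08 and 0.941 in knockout replicates 1, 2 and 3, against 0.931, 0.909 and 0.89965 in wild-type replicates 1, 2 and 3. The knockout values lay above the wild-type values by a narrow margin, 0.935 against 0.931 for the nearest libraries. Of the 28 pairs among the 8 members, Krt8 and Krt18 had the smallest spread of the log2 ratio over the libraries (SD 0.097). The next were Krt5 with Krt17 (0.22), Krt5 with Krt14 (0.23) and Krt18 with Krt19 (0.24).

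Within the basal pair, Krt5 was 0.433, 0.527 and 0.596 of Krt14 in knockout replicates 1, 2 and 3, against 0.512, 0.409 and 0.396 in wild-type replicates 1, 2 and 3. Krt17 was 0.486, 0.857 and 0.933 of Krt14 in the knockout, against 0.701, 0.678 and 0.642 in wild type, so the wild-type libraries were close together and the knockout libraries lay on both sides of them. Krt15 was 0.124, 0.0937 and 0.127 of Krt14 in the knockout, against 0.0951, 0.0634 and 0.0533 in wild type, and the groups overlapped only through knockout replicate 2 and wild-type replicate 1.

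Krt7 rose and fell with the other luminal keratins over the libraries, but over a wider range. Pearson's r of Krt7 on the log2(FPKM + 1) scale was 0.991 with Krt8, 0.988 with Krt18 and 0.942 with Krt19. Krt7 was 0.0401, 0.0811 and 0.0214 of Krt8 in knockout replicates 1, 2 and 3, against 0.142, 0.0810 and 0.0572 in wild-type replicates 1, 2 and 3. Krt7 was thus low even relative to Krt8 in knockout replicates 1 and 3, while knockout replicate 2 matched wild-type replicate 2. Krt19 went the other way, at 0.981, 0.688 and 0.863 of Krt18 in the knockout, against 0.647, 0.673 and 0.726 in wild type. Krt19 was thus closest to Krt18 in the knockout libraries with the least Krt18, replicates 1 and 3. The ratio of Krt7 to Krt8 was highest in wild-type replicate 1, which had the smallest milk share (49.2%). It was lowest in knockout replicate 3, which had the largest (77.3%). The part of the milk share in these ratios was not tested.

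The luminal sum exceeded the basal sum in every library, 12.3, 7.62 and 5.01 times in knockout replicates 1, 2 and 3, against 12.9, 10.8 and 14.3 times in wild-type replicates 1, 2 and 3. Knockout replicates 2 and 3 lay under every wild-type library, and knockout replicate 1 lay inside the wild-type range. The difference of the mean log2 ratio was -0.69, with an SD of 0.65 in the knockout and 0.20 in wild type (n = 3 each). It was -0.37 without knockout replicate 3 and -0.35 without that library and wild-type replicate 1 together. No p is given for a sum over chosen genes. In knockout replicate 3 the luminal sum was 594 FPKM and the basal sum 118 FPKM. In knockout replicate 2 the luminal sum was 2596 FPKM, inside the wild-type range of 1926 to 4411 FPKM, and the basal sum was 341 FPKM, near the wild-type maximum of 343 FPKM.

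**Figure D3:**
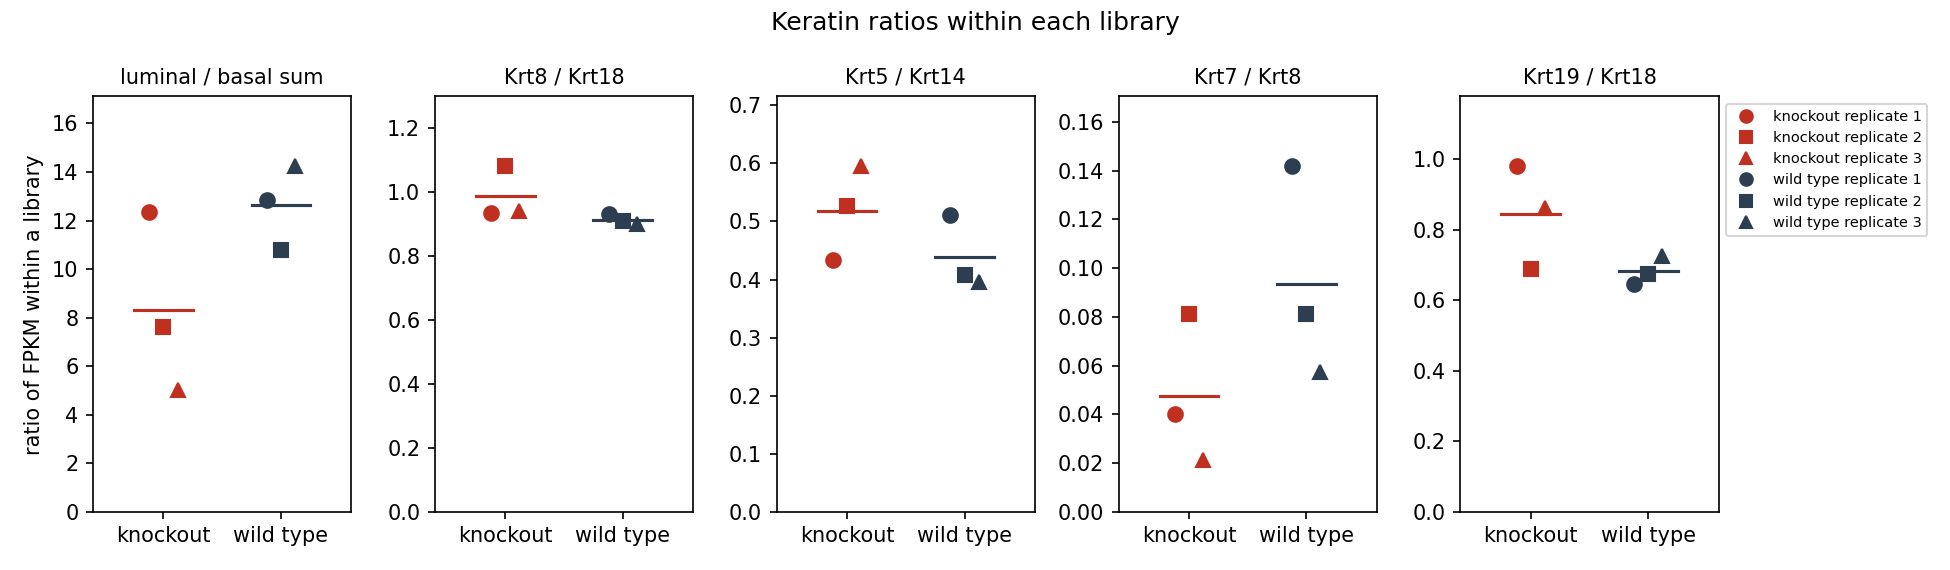
Ratios of FPKM within each library for the luminal over the basal sum and for 4 pairs, with knockout left and wild type right, marker shape for the replicate and a bar for the group mean; all axes start at 0. Krt8 over Krt18 stays between 0.89965 and 1.08, whereas Krt7 over Krt8 runs from 0.0214 to 0.142.

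Contractile genes of the basal cells were set beside the basal keratins. Acta2, the smooth muscle actin of myoepithelial cells, had 138, 724 and 169 FPKM in knockout replicates 1, 2 and 3, against 453, 386 and 222 FPKM in wild-type replicates 1, 2 and 3. Like Krt17, it was highest in knockout replicate 2. The basal keratin sum was 1.10, 0.471 and 0.7005 times Acta2 in the knockout, against 0.756, 0.652 and 0.608 times in wild type. Tagln, which encodes the actin-binding protein transgelin, had 89.6, 256.4 and 75.5 FPKM in the knockout, against 200.002, 168 and 81.7 FPKM in wild type. Over the 16 basal and myoepithelial markers the median log2 fold change was -0.25, as for the 4 basal keratins. All 16 were negative as deposited, 8 to 10 under the 3 scalings and 1 with knockout replicate 3 and wild-type replicate 1 both left out. Of all tested genes, 81.7% were negative as deposited, 49.8% to 56.3% under the scalings and 42.1% with both left out. On the luminal side the keratin sum was 4.98, 5.56 and 3.13 times Epcam in the knockout, against 7.63, 5.64 and 4.91 times in wild type, so knockout replicate 3 was low in luminal keratins relative to Epcam too. Epcam itself was 378, 467 and 189.9 FPKM in the knockout, against 578, 481 and 392 FPKM in wild type. Cldn4, another luminal marker, had 329, 1144 and 218 FPKM in the knockout, against 1059, 984 and 456 FPKM in wild type. Of the 14 luminal epithelial markers, 10 (71.4%) were negative as deposited, against 81.7% of all tested genes, with a median of -0.65. Elf5, also on this list, was positive at 0.19. Under each of the 3 scalings 9 were negative, with medians from -0.46 to -0.39. The median was -0.27 without knockout replicate 3. With both end libraries left out 10 were negative, but the median was -0.046. The groups did not overlap for Cd14 and Lypd3, 2 of 14 and lower in the knockout, where 3.83% of tested genes did the same.

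The libraries ranked by luminal keratin almost in the reverse of their milk share. The luminal sum was 1883, 2596 and 594 FPKM in knockout replicates 1, 2 and 3, against 4411, 2714 and 1926 FPKM in wild-type replicates 1, 2 and 3. Wild-type replicate 1 had the smallest milk share and the most luminal keratin, knockout replicate 3 the largest share and the least, and only knockout replicate 1 and wild-type replicate 3 broke the order. The basal sum also broke it for 1 pair of neighbours, with 341 FPKM in knockout replicate 2 at a milk share of 64.5% and 252 FPKM in wild-type replicate 2 at 62.3%. As a share of the FPKM outside the milk genes, the luminal keratins held 1.27%, 1.65% and 0.513% in knockout replicates 1, 2 and 3, against 2.29%, 1.69% and 1.41% in wild-type replicates 1, 2 and 3. The range narrowed from 7.43 times to 4.46 times on that scale, and knockout replicate 3 was still the lowest. The basal keratins held 0.103%, 0.217% and 0.102% in the knockout, against 0.178%, 0.157% and 0.0987% in wild type. The part of the milk share in the genotype values was not tested further than by the fit with the share as a covariate, added after the data were seen, which gave -0.54 for Krt7, -0.22 for Krt8, -0.37 for Krt18, -0.16 for Krt19, 0.48 for Krt5, 0.18 for Krt14, 0.95 for Krt15 and 0.27 for Krt17 on the log2 scale, none past the adjusted threshold.

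**Figure D4:**
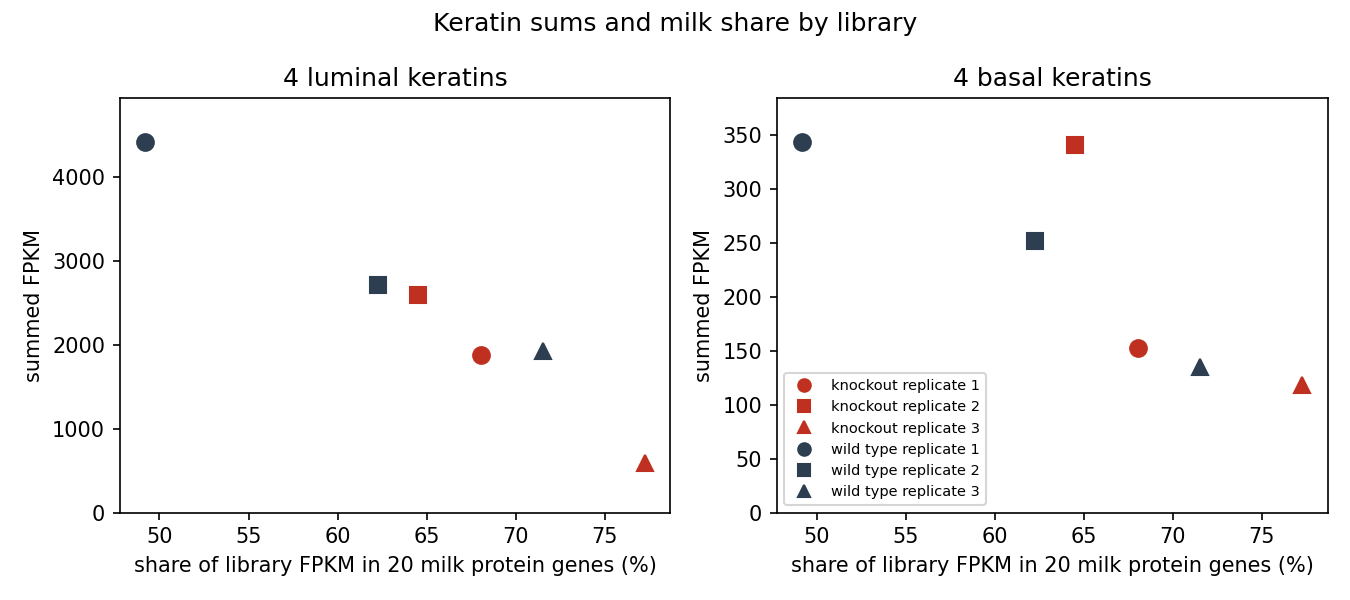
Summed FPKM of the luminal (left) and basal (right) keratins against the share of the library's FPKM in 20 milk protein genes, 1 point per library, red for knockout and dark for wild type, shape for the replicate. The luminal sum runs from 4411 FPKM at a milk share of 49.2% to 594 FPKM at 77.3%.

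All 8 keratins varied more between libraries than most genes did. The SD over the 6 libraries of log2(FPKM + 1) was 1.83 for Krt7, and 0 of the other tested genes exceeded it. It was 1.00 for Krt8, 0.99 for Krt18 and 0.85 for Krt19, which 0.645%, 0.696% and 1.71% of tested genes exceeded. It ran from 0.67 for Krt15 to 0.74 for Krt17 among the basal keratins, against a median of 0.31 over all tested genes. The first place of Krt7 depended on the scale and the libraries: 3 genes exceeded it when scaled to the FPKM outside the milk genes, 4 with a pseudocount of 0.1, 8 without knockout replicate 3 and 0 without wild-type replicate 1. With both end libraries left out, 0.553% of genes exceeded Krt7, 54.9% exceeded Krt19, and the basal keratins Krt17 (0.655%) and Krt15 (1.04%) were among the most variable members.

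**Figure D5:**
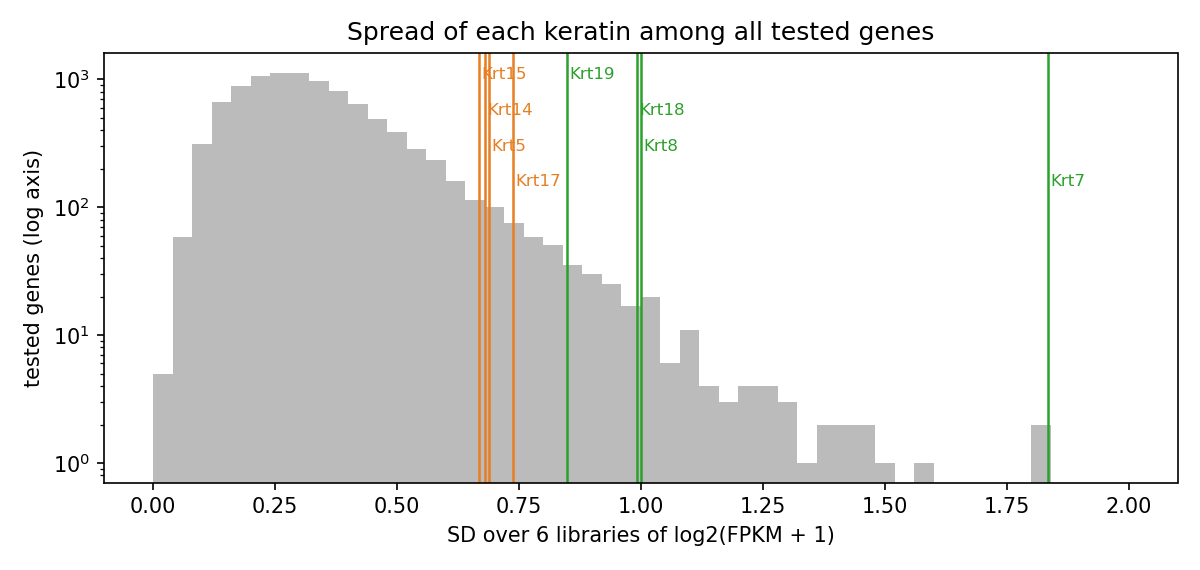
Number of tested genes (log axis) by the SD over 6 libraries of log2(FPKM + 1), with a line for each luminal (green) and basal (orange) keratin. Krt7 at 1.83 lies at the far end, and the other members lie between 0.67 and 1.00, right of the median of 0.31.

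Of the 25 other keratin genes in the table, 22 stayed under 1 FPKM in every library and 3 were tested, with 0 past the adjusted threshold and 1 at an unadjusted p under 0.05 (limma), where 1.33% of all tested genes lay. The count was 0 of 3 under the 3 scalings and without either end library. The gene was Krt80, a type II keratin of differentiating epithelia, with 1.55, 4.77 and 0.495 FPKM in knockout replicates 1, 2 and 3, against 6.68, 3.55 and 3.35 FPKM in wild-type replicates 1, 2 and 3 (log2 fold change -0.93, SE 0.42, adjusted p = 0.768, limma). The unadjusted p of Krt80 was 0.04998 (limma), barely under the threshold, and the groups overlapped. As for Krt7, the ends were wild-type replicate 1 and knockout replicate 3. Krt23, a type I keratin, had 1.36, 2.25 and 0.707 FPKM in the knockout, against 3.89, 2.55 and 0.733 FPKM in wild type. Krt16, the injury-induced type I keratin that shares sequence with Krt14, had 0.524, 2.99 and 0.527 FPKM in the knockout, against 2.51, 1.95 and 0.582 FPKM in wild type. All 3 fold changes were negative under each of the 3 scalings, where 49.8% to 56.3% of all tested genes were. With knockout replicate 3 and wild-type replicate 1 both left out 1 of 3 was negative, against 42.1% of all tested genes. The next in level, Krt10, Krt42, Krt20, Krt78 and Krt79, had means of 0.12 to 0.35 FPKM over the 6 libraries, and 16 of the 25 were listed at 0 in at least 1 library.

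Genes for the desmosome and for proteins that link keratin to the membrane had 0 of 14 tested members past the adjusted threshold, with 2 at an unadjusted p under 0.05 (limma), a threshold that 1.33% of all tested genes passed. That count was 0 of 14 under each of the 3 scalings and without knockout replicate 3 or wild-type replicate 1. All 14 fold changes were negative, against 81.7% of all tested genes, with a median of -0.44 against -0.21. They were also all negative under the 3 scalings, where 49.8% to 56.3% of all tested genes were. Without knockout replicate 3 and wild-type replicate 1 together 6 of 14 were negative, near the 42.1% of all tested genes. The plakoglobin gene Jup had 71.3 ± 31.8 FPKM in the knockout and 98.4 ± 17.6 FPKM in wild type, Perp, a desmosomal membrane protein, 35.2 ± 14.8 and 50.2 ± 22.5 FPKM, and the desmoglein gene Dsg2 24.98 ± 9.34 and 32.8 ± 9.25 FPKM in the same order (SD, n = 3 each). The 2 members with the smallest p were Dsc2, a desmocollin, with 2.04, 6.79 and 0.790 FPKM in knockout replicates 1, 2 and 3 against 15.7, 7.12 and 3.47 FPKM in wild-type replicates 1, 2 and 3, and Evpl, which encodes envoplakin. For Evpl the values were 3.07, 3.64 and 0.516 FPKM in the knockout, against 7.64, 4.74 and 3.03 FPKM in wild type. Their log2 fold changes were -1.28 (SE 0.54) and -0.94 (SE 0.41), -0.80 and -0.43 without knockout replicate 3, and -0.79 and -0.65 without wild-type replicate 1.

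Of 15 tested transcription factors of keratin-bearing epithelia, 0 passed the adjusted threshold and 1 had an unadjusted p under 0.05 (limma), as did 1.33% of all tested genes. The count was 0 of 15 under each of the 3 scalings and without knockout replicate 3 or wild-type replicate 1. The gene was Trp63, which encodes p63, a factor known to switch on Krt5 and Krt14. It had 2.25, 2.81 and 1.81 FPKM in knockout replicates 1, 2 and 3, against 9.22, 3.29 and 2.94 FPKM in wild-type replicates 1, 2 and 3, with a log2 fold change of -0.77 (SE 0.34, adjusted p = 0.768, limma) and -0.33 without wild-type replicate 1. The groups did not overlap for Trp63, for the luminal factor gene Cebpb or for the epithelial repressor gene Ovol1, 3 of 15 genes and all lower in the knockout, where 3.83% of tested genes did the same. Cebpb had 97.1, 86.3 and 93.6 FPKM in the knockout, against 104, 154 and 120 FPKM in wild type. Elf5, the alveolar luminal factor, had the highest mean of the list and the opposite sign, with 195 ± 48.7 FPKM in the knockout and 168 ± 7.77 FPKM in wild type. Ehf, an epithelial ETS factor, had 59.7 ± 24.3 FPKM in the knockout and 98.9 ± 30.8 FPKM in wild type (SD, n = 3 each). Of the 15 fold changes, 12 were negative as deposited, where 81.7% of all tested genes were. Under each of the 3 scalings 9 were negative, where 49.8% to 56.3% of all tested genes were.

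Many genes shared the profile of the luminal keratins over the 6 libraries, so likeness to it was common. Pearson's r to the mean centred profile of the 4 luminal keratins had a median of 0.826 over the other 9759 tested genes and exceeded 0.9 for 35.4% of them, and for the basal profile the median was 0.731 and the share 10.9%. The 5 genes most like the luminal profile were Serac1, Stk4, Isg20l2, Mapkapk2 and Eps8l2, each with r of at least 0.998. The 5 most like the basal profile were Myadm, Ptprs, Nfix, Rasa3 and Atrx, with r from 0.995 to 0.998. The 6 points of each correlation share library totals and milk shares, and these values are a description.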

How the data were processed

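Total RNA of mammary epithelial organoids from 3 Nmi-/- and 3 wild-type FVB mice was sequenced on standard Illumina libraries. The authors deposited FPKM for 17739 gene symbols in 1 table with libraries in rows. FastQC, TopHat, SAMtools and Cufflinks, and the builds mm10 and GRCm38, are named in the submitters' processing notes; the sources used here give no versions, strand setting or annotation. FPKM hold no counts, so the depth is unknown and no counting interval was made. Gapdh, abundant in nearly all cells, was listed between 0 and 0.0769 FPKM, so an entry of 0 was not read as absence.

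Genes with at least 1 FPKM in at least 3 libraries (9767, all 8 keratins among them) entered limma 3.58.1 (R 4.3.3) on the log2(FPKM + 1) scale, knockout minus wild type, with an intensity trend, two-sided, and Benjamini-Hochberg adjustment over all of them at 0.05. A pseudocount of 1 understates the change of low genes. The script was tested on simulated data. Exact permutation tests over the 20 assignments of mice were two-sided. Ratios and sums over keratins were given without a test. Shared sequence was sought as windows of 50 bases in GENCODE M21 transcripts.

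The named genes were all 8 keratins and Nmi, the 8 most abundant other keratins, the 3 most abundant and the 2 with the smallest p of the desmosome and regulator lists, the 2 most abundant of each marker list, and the 5 genes most like each keratin group. Of the marker genes picked in this way, Col3a1, Dcn, Pparg, Acta1 and Ckm are not described one by one. A few others were named after their values were seen. The members and lists were chosen with earlier results of these data known. Replicates are separate mice, numbered in the order of the labels. No list was tested as a set. Other settings tried were a pseudocount of 0.1, no filter, 3 scalings, library weights and leaving out each library; the milk share covariate and leaving out both end libraries were added after the data were seen. For the library weights, the default search of limma called 7740 of 9767 genes and raised a warning, so weights estimated gene by gene were used instead, also after the data were seen. The matching sequences of the type II genes are not reported here.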

Additional observations from a re-analysis of the deposited data

How the results depend on the processing

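No keratin passed the adjusted threshold under any of the 14 alternatives, where the smallest adjusted p of a member ran from 0.403 (without knockout replicate 2) to 1.00; up to 3 members had an unadjusted p under 0.05. Krt7, Krt8 and Krt18 kept negative fold changes in all 14, between -2.91 and -0.26, -1.49 and -0.019, and -1.53 and -0.17. The sign turned for Krt5, to 0.067 (trimmed-mean rescaling), 0.021 (quantile normalization), 0.027 (scaled to the sum outside the milk list) and 0.48 (milk share as covariate). With that covariate it also turned for Krt14 (0.18) and Krt17 (0.27). With knockout replicate 3 and wild-type replicate 1 both left out it turned for Krt19 (0.061), Krt5 (0.46), Krt14 (0.22) and Krt17 (0.19). Krt15 was then at 0.97 (SE 0.30, adjusted p = 0.9999, limma). With the covariate Krt15 was at 0.95 (SE 0.17, adjusted p = 0.99997, limma). In both settings Krt15 was the 1 member with an unadjusted p under 0.05. Of all 9767 tested genes, 78 were under it with both libraries left out and 102 with the covariate. Leaving out 1 library at a time gave log2 differences of -2.91 to -0.93 for Krt7, -1.49 to -0.34 for Krt8, -1.53 to -0.48 for Krt18, -1.10 to -0.21 for Krt19, -0.61 to 0.18 for Krt5, -0.84 to -0.036 for Krt14, -0.20 to 0.69 for Krt15, -0.84 to 0.0015 for Krt17, -1.02 to -0.37 for the luminal to basal ratio, 0.039 to 0.14 for Krt8 to Krt18, 0.13 to 0.36 for Krt5 to Krt14 and -1.97 to -0.74 for Krt7 to Krt19. The luminal to basal difference stayed negative in all 8 alternatives for it. The cause of these turns was not tested. Over all genes, those with an unadjusted p under 0.05 numbered 130 as deposited and 25 when wild-type replicate 1 was left out. They numbered 1187 without knockout replicate 2, 632 without wild-type replicate 3 and 1142 with library weights, the settings with 3 members under it. Library weights put 2 genes past the adjusted threshold, and leaving out both knockout replicate 3 and wild-type replicate 1 put 1 past it. No paired analysis was possible because the labels give the mice of the 2 genotypes no shared numbers. Half-widths of the 95% confidence interval were 0.57 at the median gene and wider for each keratin. The interval of Krt8, from -2.20 to 0.22, included 0. The size of difference that 3 mice per genotype could detect was not computed.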
